A study of Caenorhabditis elegans with 6 samples.

Results

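ETS-5, EGL-13 and CEH-37 are transcription factors linked to the identity of BAG neurons, the paired gas-sensing head neurons of the nematode Caenorhabditis elegans. The gene rows named ets-5, egl-13 or ceh-37 were taken from the deposited table and are 3 of its 47063 genes. RNA sequencing measured messenger RNA in cells that flow cytometry had sorted after dissociated embryonic cells were cultured overnight, with 2 biological replicates in each of 3 groups and 6 libraries in all. All 6 libraries carried the reporter wzIs113[Pgcy-9::GFP], green fluorescent protein under the control of the gcy-9 promoter. BAG pmk-3(wz31) cells were fluorescent cells of strain FQ705, which also carries the wz31 allele of pmk-3, a p38 MAP kinase gene. BAG wild-type cells were fluorescent cells of strain FQ424, and non-BAG cells were the non-fluorescent cells of that strain. The labels describe this reporter as independent of pmk-3 and state that dead cells were gated out. The sources used here do not say what the wz31 allele changes in the gene.

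ETS-5 belongs to the ETS family, whose members bind DNA through a winged-helix domain, and is known in the worm as an activator of BAG genes, among them gcy-9, the receptor guanylyl cyclase for carbon dioxide. EGL-13 is a SOX protein related to vertebrate SoxD factors, which bend DNA through an HMG box, and it is known for the fate of BAG and URX neurons, both sensors of respiratory gases. CEH-37 is an OTX-class homeodomain protein, known from the AWB olfactory neurons. Because the gate read a reporter driven by the gcy-9 promoter, the fluorescent cells were selected through a gene that ETS-5 is known to activate.

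Levels are the authors' normalized read counts, in which reads are scaled to make libraries comparable, or those counts per kb of exon where stated. The libraries held 6181113 to 8596169 reads, and genes of ribosomal RNA took 10.4% to 15% of them. The transcript of pmk-3 stood at 259.8 and 284 normalized counts in BAG pmk-3(wz31) libraries, 671 and 585 in BAG wild-type libraries and 404 and 553 in non-BAG libraries, so both mutant values lay under all wild-type values. The summed level of 6 BAG markers, gcy-9, gcy-31, gcy-33, flp-17, flp-13 and glb-5, ran from 47137 to 57562 normalized counts in BAG pmk-3(wz31), 43900.0 to 48356 in BAG wild type and 444 to 448 in non-BAG libraries. Most of each sum was gcy-9, which averaged 40528, 35311 and 269.5 in the same order of groups. The gcy-9 promoter drove the sorting reporter, so these sums are no independent check of the sort. Of 10 body wall muscle markers, 9 were called lower in both BAG groups than in non-BAG cells and unc-54, a muscle myosin gene, was called higher. The list summed to 47429 to 52163 in BAG pmk-3(wz31), 38543 to 42358 in BAG wild type and 23399 to 27488 in non-BAG libraries. Most of the BAG sums was unc-54, which averaged 44149, 34735 and 6840.0 in the same order of groups. The sums therefore do not describe the other 9 markers. Of 10 markers of proliferating cells, 8 were called lower in BAG pmk-3(wz31) than in non-BAG cells, where 9.34% of all genes tested were, and 7 were called lower in BAG wild type than in non-BAG cells, where 4.01% of all genes tested were. With 1 library left out these numbers were 4 to 8 for BAG pmk-3(wz31), the lowest without either of its replicates, and 1 to 8 for BAG wild type, the lowest without non-BAG replicate 1. Of 11 markers of other sensory neurons, 8 were tested, and the list's summed level ran from 392 to 453 in BAG pmk-3(wz31), 301 to 434 in BAG wild type and 323 to 588 in non-BAG libraries. Within that list the olfactory receptor gene odr-10, the AFD guanylyl cyclase gene gcy-8 and the dopamine transporter gene dat-1 were called higher in BAG pmk-3(wz31) than in non-BAG cells by limma and by edgeR, beside 16.2% of all genes tested, and none of the list was called by limma in the other comparisons. For odr-10 there were 17.2 and 28.7 normalized counts in BAG pmk-3(wz31) libraries, 0 and 7.90 in BAG wild-type libraries and 0 in both non-BAG libraries. Testing required a value of 10 or more in 2 libraries, which odr-10 reached only in BAG pmk-3(wz31). The filter therefore favoured its call in that direction, and the call adds no support to the list. The gene gcy-8 had 115 and 86.2, 64 and 20.8, and 16.2 and 25.4 in the same order of groups, and dat-1 had 89.5 and 98.9, 68.5 and 43.8, and 8.66 and 29.1. The number called higher was 0 without BAG pmk-3(wz31) replicate 1 or replicate 2, 1 without non-BAG replicate 1 and 2 without non-BAG replicate 2, and DESeq2 also called gcy-32 lower. Pharynx markers summed to 5884 to 5979.7 in BAG pmk-3(wz31), 2683 to 5814 in BAG wild type and 1708 to 4671 in non-BAG libraries. Within these sums pha-4 averaged 4505, 3099 and 2602 in the same order of groups. Of 7 pharynx markers, 1, tni-4, was called higher in both BAG groups. That is 14.3% of the list, near the 16.2% of all genes tested called higher in BAG pmk-3(wz31) and the 10.2% in BAG wild type. The number called higher rose or fell with the library left out, and with no trend it was 0 in BAG wild type. The intestine list summed to at most 75.6 in any library. The list of 7 germline genes summed to 1593 to 1664 in BAG pmk-3(wz31), 1786 to 1824 in BAG wild type and 2279.5 to 2342 in non-BAG libraries. Most of each germline sum was cgh-1, which averaged 1422, 1499.6 and 1959 in the same order of groups. Of 6 germline genes tested, limma called 1, mex-5, lower in BAG pmk-3(wz31) than in non-BAG cells. That is 16.7%, beside 9.34% of all genes tested. Within the list nos-2 was at 0 in all BAG libraries and averaged 6.04 in non-BAG libraries, so nos-2 does not describe the list. Of 7 hypodermis genes tested, 1 was called lower in both BAG groups than in non-BAG cells (14.3%). Of 6 glia genes tested, 1 was called higher in both BAG groups (16.7%) and 1 lower in BAG wild type (16.7%). Beside them stand 16.2% of all genes tested called higher and 9.34% lower in BAG pmk-3(wz31), and 10.2% and 4.01% in BAG wild type. The lower glia call was lost with no filter and with no trend, and a replicate block gave 2. The part that other cells in the sorted populations play in the values below was not tested. In sorted populations, fewer cells that express a gene and less RNA per cell cannot be told apart.

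In the annotation used here (Ensembl 115, WBcel235) all 3 genes lie on the X chromosome. Gene WBGene00016600, ets-5, has 5 annotated transcripts and 2255 exon bases, WBGene00001182, egl-13, has 13 transcripts and 3082 exon bases, and WBGene00000458, ceh-37, has 4 transcripts and 1489 exon bases. No coordinates are given, because the authors' build and annotation were not given in the sources used here. The deposited values, 1 per gene, do not separate transcripts.

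The first question is how the 3 genes stood in sorted BAG neurons against the other cells of the same strain. Transcripts of ets-5 were plentiful in the fluorescent cells and rested on few reads in the others. It had 702 and 647 normalized counts in BAG pmk-3(wz31) libraries, 620.3 and 473 in BAG wild-type libraries and 7.58 and 8.68 in non-BAG libraries. All 4 BAG libraries were far above both non-BAG libraries, with no overlap. The non-BAG values rest on 7 and 14 reads, with exact Poisson 95% intervals of 2.81 to 14.4 and 7.65 to 23.5 reads that cover counting error only. Per kb of exon, the ets-5 mean was 299 ± 17 normalized counts in BAG pmk-3(wz31), 242 ± 46.3 in BAG wild type and 3.61 ± 0.344 in non-BAG cells (SD, n = 2 each), so the non-BAG mean was 1.49% of the BAG wild-type mean. The reads of ets-5 are uncertain to the extent that it shares 76 exon bases with cal-5 on the same strand. That gene averaged 47.8% of the ets-5 level over the 6 libraries and, at 39.0 and 57.7 normalized counts in non-BAG libraries, stood above ets-5 there.

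The SOX gene egl-13 was present in every library and much higher in BAG neurons. It had 15698 and 17874 normalized counts in BAG pmk-3(wz31) libraries, 17945 and 12281 in BAG wild-type libraries and 1039 and 539 in non-BAG libraries. All 4 BAG libraries lay far above both non-BAG libraries, and the non-BAG libraries themselves differed by a ratio of 1.93. Its means were 16786 ± 1539 in BAG pmk-3(wz31), 15113 ± 4005 in BAG wild type and 789 ± 353 in non-BAG cells (SD, n = 2 each). The non-BAG mean was 5.22% of the BAG wild-type mean and rests on 959 and 870 reads.

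The OTX gene ceh-37 showed the smallest separation of the 3. It had 1948 and 2521 normalized counts in BAG pmk-3(wz31) libraries, 2147 and 1499.6 in BAG wild-type libraries and 573 and 301 in non-BAG libraries. Again all BAG libraries lay above both non-BAG libraries. The means were 2234 ± 405 in BAG pmk-3(wz31), 1823 ± 458 in BAG wild type and 437 ± 192 in non-BAG cells (SD, n = 2 each), and the non-BAG mean was 24.0% of the BAG wild-type mean. Non-BAG cells thus kept a measurable ceh-37 level, on 529 and 485 reads.

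**Figure D1:**
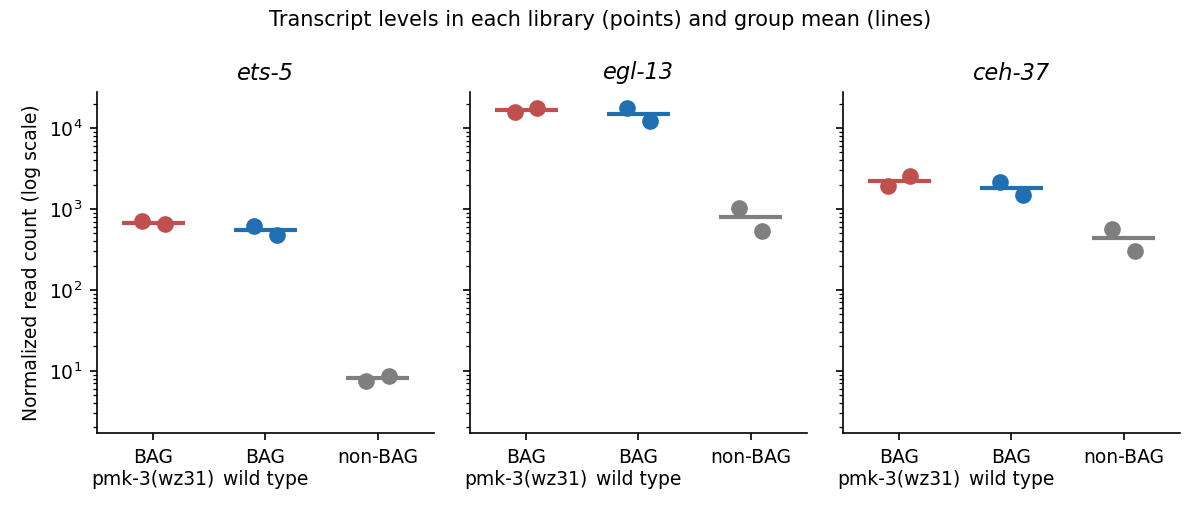
Normalized read counts of ets-5, egl-13 and ceh-37 on a log axis, 1 panel per gene; points are the 2 libraries of each group and horizontal lines are group means. In each panel the 4 BAG libraries lie above the 2 non-BAG libraries, and the gap is widest for ets-5 (non-BAG 7.58 and 8.68) and narrowest for ceh-37 (non-BAG 573 and 301).

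All 3 genes were called higher in BAG wild-type than in non-BAG cells, where 10.2% of the 14211 genes tested were called higher, 4.01% lower and 14.2% in either direction. Calls used limma on log2(value + 1) across all genes with Benjamini-Hochberg adjusted p under 0.05. The fitted difference of ets-5 corresponded to a 59.5-fold higher level (95% interval 36.7 to 96.5, limma adjusted p = 7.00e-06) and ranked 22 of 14211 from the highest. For egl-13 the ratio was 19.8 (11.3 to 34.7, limma adjusted p = 7.25e-05, rank 112). For ceh-37 it was 4.32 (2.49 to 7.47, limma adjusted p = 0.00363, rank 1079). The 3 intervals did not overlap one another, which describes the order ets-5, egl-13, ceh-37 without a test of the differences between genes.

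Against the same non-BAG libraries, the BAG pmk-3(wz31) cells also had all 3 genes called higher, beside 16.2% of genes tested that were called higher, 9.34% called lower and 25.5% called in either direction. The log2 differences were 6.21 ± 0.31 for ets-5 (SE, 95% interval 5.51 to 6.91, limma adjusted p = 3.25e-06), 4.48 ± 0.36 for egl-13 (3.67 to 5.29, limma adjusted p = 3.25e-05) and 2.41 ± 0.35 for ceh-37 (1.62 to 3.20, limma adjusted p = 0.00110). This comparison and the preceding one share the non-BAG libraries, so the second is no independent support for the first. Every one of these calls held in all 17 alternative settings.

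Between genes, levels were compared per kb of exon within each library. In this scale egl-13 had 5093 and 5799 normalized counts per kb in BAG pmk-3(wz31) libraries, 5823 and 3985 in BAG wild-type libraries and 337 and 175 in non-BAG libraries. Among 20179 protein-coding genes it ranked 47 and 45 from the top in BAG pmk-3(wz31), 33 and 65 in BAG wild type and 1748 and 2798 in non-BAG libraries. A transcription factor gene thus stood among the 65 highest protein-coding genes of every BAG library.

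The homeobox gene ceh-37 had 1308 and 1693 normalized counts per kb in BAG pmk-3(wz31) libraries, 1442 and 1007 in BAG wild-type libraries and 385 and 202 in non-BAG libraries, with ranks of 392 and 311, 355 and 500, and 1553 and 2474 in the same order. The ETS gene ets-5 had 311 and 287 normalized counts per kb in BAG pmk-3(wz31) libraries, 275 and 209.6 in BAG wild-type libraries and 3.36 and 3.85 in non-BAG libraries, with ranks of 1943 and 2156, 2264 and 2691, and 13290 and 14477. The order egl-13, ceh-37, ets-5 held in all 4 BAG libraries without overlap between neighbours. In both non-BAG libraries ceh-37 lay slightly above egl-13, and the ranges of these neighbours overlapped there.

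The proportion between egl-13 and ceh-37 varied little within a cell population. Per kb, egl-13 stood at 3.89 and 3.43 times ceh-37 in BAG pmk-3(wz31) libraries, 4.04 and 3.96 times in BAG wild-type libraries and 0.876 and 0.867 times in non-BAG libraries. Between the non-BAG replicates each gene alone differed, by ratios of 1.93 for egl-13 and 1.91 for ceh-37, and their quotient moved little. In BAG wild type the 2 genes also shared the direction of the replicate difference, with ratios of replicate 1 to replicate 2 of 1.46 and 1.43. Shifts in this direction were not particular to the pair. In non-BAG replicates 1 and 2 the regulator genes vab-3 and egl-46 had 598 and 333, and 2804 and 1412, per kb. In BAG wild type they had 2316 and 1932, and 1419 and 848. Some regulator genes went the other way, among them nhr-67 with 221 and 524 in non-BAG libraries. The ratio of ets-5 between replicates was 1.08 in BAG pmk-3(wz31), 1.31 in BAG wild type and 0.873 in non-BAG cells. These ratios are descriptions and were not tested.

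The second question is whether the wz31 mutation of pmk-3 went with a different level of these factors in BAG neurons. None of the 3 genes was called between BAG pmk-3(wz31) and BAG wild type, where 0.837% of genes tested were called in either direction and 0.486% were called higher. By limma 0 of 3 had an unadjusted p under 0.05, and edgeR and DESeq2 on the recovered reads called 0 of 3. The fitted ratio of ets-5 was 1.24 (95% interval 0.768 to 2.02, limma adjusted p = 0.670), with both mutant libraries above both wild-type libraries. For egl-13 the ratio was 1.13 (0.644 to 1.98, limma adjusted p = 0.857) and for ceh-37 it was 1.23 (0.713 to 2.14, limma adjusted p = 0.724), and for both genes the groups overlapped.

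These intervals leave room for a ratio as low as 0.644 and as high as 2.14, so they do not show equal levels. The sign of the egl-13 difference turned under quantile scaling (log2 difference -0.09) and without BAG wild type replicate 2 (-0.10). That library had the lowest BAG value of each of the 3 genes.

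**Figure D2:**
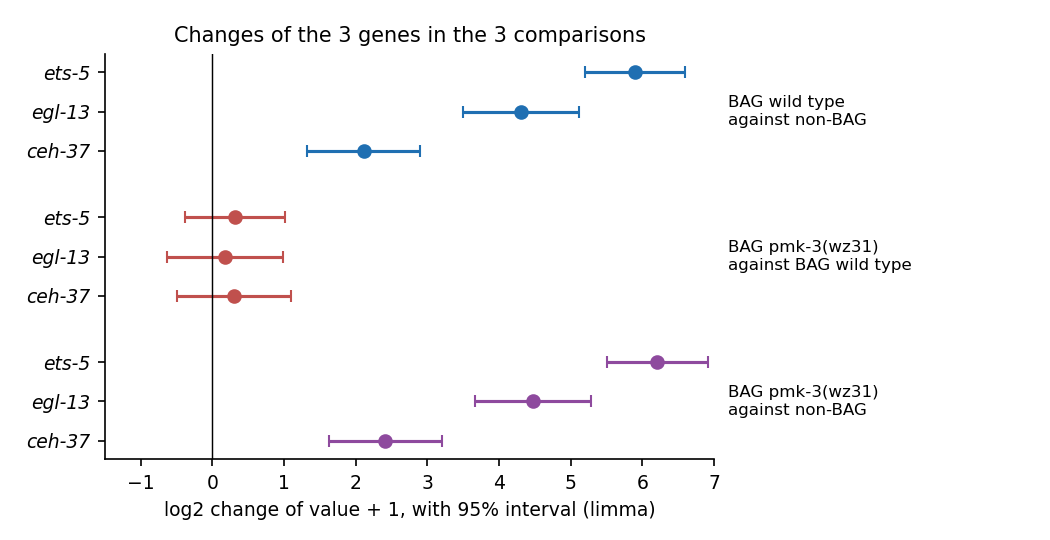
Log2 differences of value + 1 for the 3 genes in each comparison, group named first minus group named second, with 95% intervals from limma. The intervals against non-BAG cells lie above 0 for all 3 genes in both genotypes, and the intervals between BAG pmk-3(wz31) and BAG wild type all include 0.

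The relatives of each factor were described from family lists. Of 10 ETS genes listed, 9 were matched in the table and 5 passed the filter on low values. In BAG cells ets-5 was the ETS gene with the highest level per kb, with 44.5% and 42.7% of the summed family level in BAG pmk-3(wz31) libraries and 46.2% and 40.4% in BAG wild-type libraries, against 0.803% and 1.72% in non-BAG libraries. It ranked 1 of 9 in every BAG library and 7 and 6 of 9 in the non-BAG libraries. Against non-BAG cells limma called 16.2% of all genes tested higher in BAG pmk-3(wz31) and 10.2% in BAG wild type. Of the 5 tested ETS genes, ets-5 was the one called higher in each BAG group against non-BAG cells, and 0 were called lower. Without non-BAG replicate 1 the number called higher was 2 in each of these comparisons, and without non-BAG replicate 2 limma called 1 lower in BAG wild type. One further gene was close: ets-4, a regulator of worm lifespan, had 219 and 247 normalized counts in BAG pmk-3(wz31), 164 and 152 in BAG wild type and 116 and 136 in non-BAG libraries (mutant against non-BAG log2 difference 0.88 ± 0.30, limma adjusted p = 0.0545), and edgeR called 2 ETS genes in that comparison.

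The remaining 3 tested ETS genes had reads in all 6 libraries. The dopamine neuron factor ast-1 had 369 and 382 normalized counts in BAG pmk-3(wz31), 271 and 303 in BAG wild type and 287 and 78.1 in non-BAG libraries. Both mutant libraries lay above both non-BAG libraries (log2 difference 1.32 ± 0.51, limma unadjusted p = 0.0279, adjusted p = 0.0860). The vulval fate gene lin-1 had 127 and 90.8, 111 and 68.2, and 257 and 136 in the same order. All 4 BAG libraries of lin-1 lay below both non-BAG libraries (BAG wild type against non-BAG log2 difference -1.10 ± 0.42, limma unadjusted p = 0.0263, adjusted p = 0.119). The gene ets-6 had 63.6 and 63.2, 87.7 and 113, and 117 and 88.6. With all libraries limma called none of these 3 in any of the 3 comparisons; ast-1 was the second gene called higher without non-BAG replicate 1, and lin-1 was the gene called lower without non-BAG replicate 2. The reads of ast-1 and ets-4 are uncertain, because each shares exon bases with a gene on the other strand, rhgf-2 and ceh-60. The other ETS genes, ets-7, ets-8, ets-9 and ets-10, had at most 13 reads in any library and were not tested.

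Among the 5 SOX genes, all tested, egl-13 held 75.7% and 83.0% of the summed level per kb in BAG pmk-3(wz31) libraries and 83.7% and 91.3% in BAG wild-type libraries, against 15.9% and 21.9% in non-BAG libraries. It ranked 1 of 5 in every BAG library and 3 of 5 in both non-BAG libraries, where sox-2 and sem-2 ranked above it. The SoxB gene sox-2 had 1878 and 1404 normalized counts in BAG pmk-3(wz31), 1227 and 366 in BAG wild type and 2375 and 666 in non-BAG libraries, and the SoxC gene sem-2 had 287 and 249.5, 349 and 147, and 781 and 444. Both spread widely between replicates, and with all libraries limma called neither in any comparison. For sem-2 all 4 BAG libraries lay below both non-BAG libraries, and DESeq2 called it lower in BAG pmk-3(wz31) (log2 difference -1.17, adjusted p = 0.0381) and in BAG wild type (-1.32, adjusted p = 0.0253) than in non-BAG cells. Limma called it lower in both comparisons without BAG wild type replicate 1 and without non-BAG replicate 2, and in BAG pmk-3(wz31) also without BAG wild type replicate 2.

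In BAG wild type against non-BAG cells limma called 10.2% of all genes tested higher. There egl-13 was the one SOX gene that limma and edgeR called, and DESeq2 called 2, the other being sem-2. In BAG pmk-3(wz31) against non-BAG cells limma called 16.2% of all genes tested higher. For that comparison edgeR called 3 SOX genes and DESeq2 called 4. Limma called 3, adding sox-3 and sox-4 to egl-13. The first had 356 and 195 normalized counts in BAG pmk-3(wz31), 236 and 70.4 in BAG wild type and 97.5 and 48.4 in non-BAG libraries, with a mutant to non-BAG log2 difference of 1.93 ± 0.58 (limma adjusted p = 0.0379). The second had 396 and 275, 241 and 96.2, and 155 and 50.8, with a difference of 1.88 ± 0.57 (limma adjusted p = 0.0376). Both calls were lost without BAG pmk-3(wz31) replicate 1, without BAG pmk-3(wz31) replicate 2, without non-BAG replicate 2, with no filter and with no trend, and their adjusted p over the alternatives ran up to 0.242 and 0.213.

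Of the 3 OTX genes, ceh-37 held 79.6% and 90.1% of the summed level per kb in BAG pmk-3(wz31) libraries, 85.2% and 92.0% in BAG wild-type libraries and 57.1% and 68.6% in non-BAG libraries, so it led its family in every library. The AWC and ASE neuron factor ceh-36 had 153 and 96.6 normalized counts in BAG pmk-3(wz31), 108 and 21.5 in BAG wild type and 116 and 34.1 in non-BAG libraries. The AFD thermosensory neuron factor ttx-1 had 317 and 159, 245 and 108, and 295 and 97.9. The groups of both genes overlapped in each comparison, and neither was called. Between BAG pmk-3(wz31) and BAG wild type limma called 0 of the 13 tested genes in the 3 families, and edgeR and DESeq2 called 0, with 0 at an unadjusted p under 0.05.

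**Figure D3:**
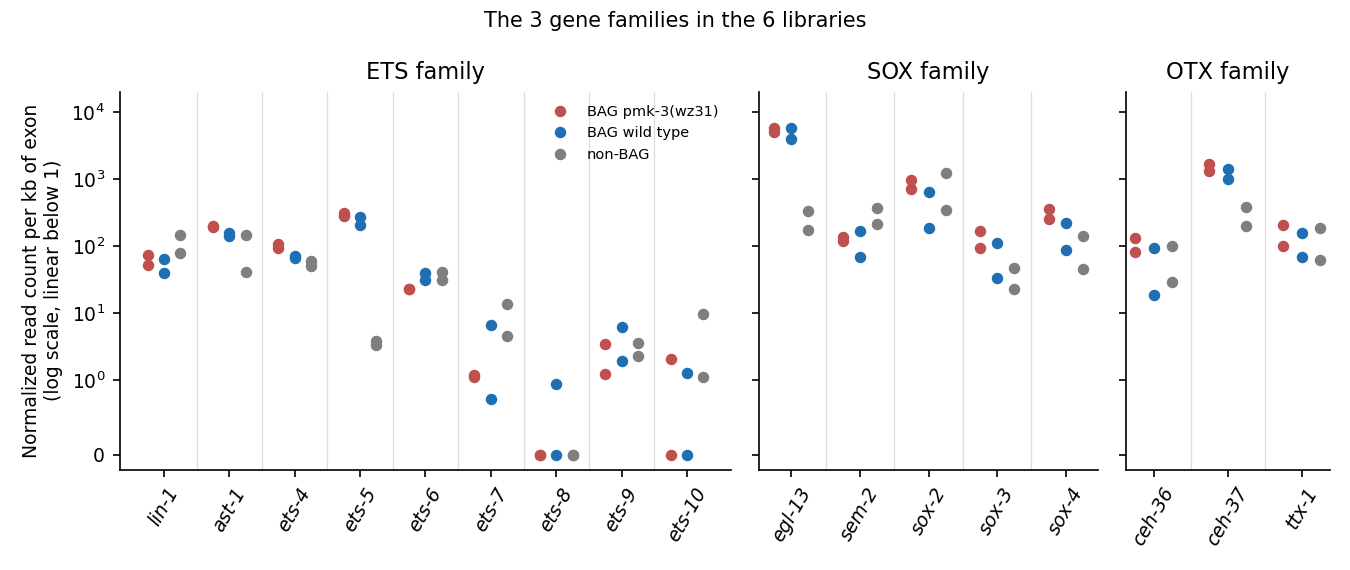
Normalized read counts per kb of exon (log axis, linear below 1) of all ETS, SOX and OTX genes matched in the table; each point is 1 library, coloured by group. The BAG points of ets-5, egl-13 and ceh-37 are the highest of their families, while the non-BAG points of ets-5 (3.36 and 3.85) fall below those of several relatives.

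The 3 genes were then set among 51 regulators of neuronal fate and relatives, ranked by mean level per kb. In both BAG genotypes the order began with egl-13, vab-3, ceh-37 and egl-46. The gene vab-3, the worm Pax6, averaged 2358 ± 185 normalized counts per kb in BAG pmk-3(wz31), 2124 ± 271 in BAG wild type and 465 ± 188 in non-BAG cells (SD, n = 2 each). The zinc finger gene egl-46 averaged 1139 ± 118, 1133 ± 404 and 2108 ± 985 and was the first of the 51 in non-BAG cells. In BAG wild type the neighbours ceh-37, at 1225 ± 307, and egl-46 overlapped, whereas egl-13, at 4904 ± 1299.6, lay above vab-3 in both libraries. The ranks of ets-5 were 12 in BAG pmk-3(wz31), 11 in BAG wild type and 49 in non-BAG cells, those of ceh-37 were 3, 3 and 17, and those of egl-13 were 1, 1 and 19.

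Of 36 tested neuron fate regulators, a list that leaves out the 3 genes, 1 was called higher and 5 lower in BAG wild type than in non-BAG cells, which is 2.78% and 13.9% of the list beside 10.2% and 4.01% of all genes tested. The median log2 difference of the list was -0.46, beside -0.04 over all genes tested. The regulator called higher was vab-3, with 6092 and 6807 normalized counts in BAG pmk-3(wz31), 6333 and 5284 in BAG wild type and 1635 and 909 in non-BAG libraries. All its BAG libraries were above its non-BAG libraries (BAG wild type against non-BAG log2 difference 2.25 ± 0.32, limma adjusted p = 0.00152).

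Among those called lower, hlh-4, a bHLH gene of the ADL sensory neurons, had 49.6 and 57.5 normalized counts in BAG pmk-3(wz31), 46.6 and 25.9 in BAG wild type and 182 and 138 in non-BAG libraries (BAG wild type against non-BAG -2.16 ± 0.41, limma adjusted p = 0.00739). The touch neuron gene mec-3 had 9.70 and 11.5, 6.40 and 7.90, and 32.5 and 34.1 (-2.08 ± 0.59, limma adjusted p = 0.0440). The Distal-less homologue ceh-43 had 314 and 281, 221 and 197, and 1141 and 397 (-1.69 ± 0.44, limma adjusted p = 0.0306), and the achaete-scute homologue hlh-3 had 172 and 206, 203 and 116, and 639 and 333 (-1.58 ± 0.40, limma adjusted p = 0.0265). For these 4 genes all BAG libraries lay below both non-BAG libraries. They were picked as called lower, so this separation adds no support to the calls. The gene mec-3 would not have passed the filter without its non-BAG libraries, where it was high. The fifth gene called lower was the bHLH gene cnd-1, which falls outside the naming rule. The number called lower was 1 without BAG pmk-3(wz31) replicate 1, BAG pmk-3(wz31) replicate 2 or BAG wild type replicate 2, 2 without non-BAG replicate 1 and 11 without non-BAG replicate 2. The call of mec-3 was lost in 9 of the 16 alternatives that tested it, and of 17 alternatives the call was lost in 7 for ceh-43, 6 for hlh-3 and 0 for hlh-4 and vab-3.

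Between BAG pmk-3(wz31) and non-BAG cells 2 of the 36 were called higher, vab-3 (2.40 ± 0.32, limma adjusted p = 0.000660) and unc-42, a homeobox gene outside the naming rule, and 4 lower. These are 5.56% and 11.1% of the list, beside 16.2% called higher and 9.34% called lower among all genes tested, so the share called lower was near that of all genes. The lower ones were hlh-4, hlh-3, nhr-67 and lin-32. The tailless homologue nhr-67 had 219.9 and 182 normalized counts in BAG pmk-3(wz31), 280.5 and 375 in BAG wild type and 349.8 and 831 in non-BAG libraries (mutant against non-BAG limma adjusted p = 0.0289). The atonal homologue lin-32 had 3.23 and 6.90, 10 and 19.4, and 47.6 and 18 (mutant against non-BAG limma adjusted p = 0.0395). The number called lower was 0 without either BAG pmk-3(wz31) replicate 1 or replicate 2 and 1 without non-BAG replicate 1. Between the BAG genotypes limma called 0 of 36, with 0 at an unadjusted p under 0.05, and edgeR and DESeq2 called 0. The median log2 difference there was 0.46, beside 0.02 over all genes tested.

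The genes through which BAG neurons sense and signal were listed as BAG effectors, several of them known targets of ETS-5. All 11 were called higher than in non-BAG cells in both genotypes, with a median log2 difference of 4.71 for BAG pmk-3(wz31) and 4.07 for BAG wild type, where 16.2% and 10.2% of all genes tested were called higher. This list was assembled from genes known in BAG neurons, and gcy-9 drives the sorting reporter. Over the alternatives 9 to 11 of the 11 passed in BAG wild type against non-BAG cells, the 9 being without BAG wild type replicate 2, where flp-10 and flp-19 lost their calls.

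Between genotypes, limma called 2 neuropeptide genes and no gas receptor gene. Both were called higher in BAG pmk-3(wz31) and make up 18.2% of the effector list, beside 0.486% of all genes tested called higher. The carbon dioxide receptor gcy-9 had a mutant to wild-type log2 difference of 0.20 ± 0.28, and the soluble guanylyl cyclases for oxygen, gcy-31 and gcy-33, had 0.09 ± 0.28 and -0.24 ± 0.32, none of them called. The neuropeptide gene flp-10 had 1129.7 and 1862 normalized counts in BAG pmk-3(wz31), 283 and 366 in BAG wild type and 92.0 and 119.6 in non-BAG libraries. It rose in the mutant by a log2 difference of 2.17 ± 0.33 (limma adjusted p = 0.0275), with both mutant libraries above both wild-type libraries. A second neuropeptide gene, flp-19, had 438 and 497 normalized counts in BAG pmk-3(wz31), 111 and 117 in BAG wild type and 47.6 and 36 in non-BAG libraries, and it rose by 2.03 ± 0.32 (limma adjusted p = 0.0301). It shares 5 exon bases with abl-1 on the other strand, so its reads are uncertain.

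These 2 were the effectors that limma called, with a list median of 0.85 beside 0.02 over all genes tested. On the recovered reads edgeR called 3 of the 11 effectors and DESeq2 called 4. The neuropeptide gene flp-17 had 882 and 1466 normalized counts in BAG pmk-3(wz31), 167 and 292 in BAG wild type and 1.08 and 3.10 in non-BAG libraries and missed the threshold (mutant against wild type 2.36 ± 0.47, limma adjusted p = 0.0567). For flp-13 the difference was 1.29 ± 0.38 (limma adjusted p = 0.140) and for eat-4, the vesicular glutamate transporter gene, 1.29 ± 0.31 (limma adjusted p = 0.0868), and eat-4 shares exon bases with ZK512.2 on the other strand. The cyclic nucleotide channel subunits tax-2 and tax-4 had 0.85 ± 0.54 and 0.46 ± 0.32, and the globin gene glb-5 had 0.52 ± 0.37, none of them called. The calls of flp-10 and flp-19 were lost with no trend and without any 1 of the 4 BAG libraries, and 0 to 4 effectors passed over the alternatives.

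**Figure D4:**
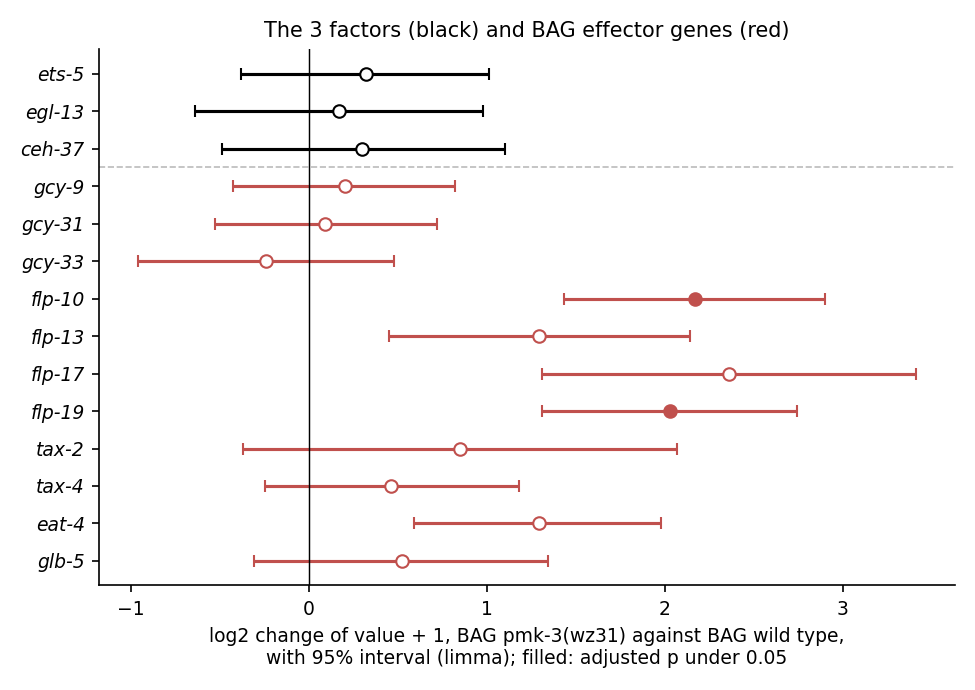
Log2 differences of value + 1, BAG pmk-3(wz31) minus BAG wild type, with 95% intervals from limma, for the 3 factors (black) and the 11 BAG effector genes (red); filled points passed an adjusted p of 0.05. The 3 factors and the 3 guanylyl cyclase genes lie near 0, and flp-10 (2.17) and flp-19 (2.03) are the filled points.

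Effector levels were also set against ets-5 in the same library, as ratios of levels per kb. The ratio of flp-10 to ets-5 was 5.33 and 9.52 in BAG pmk-3(wz31) and 1.51 and 2.57 in BAG wild-type libraries, and that of flp-17 to ets-5 was 3.89 and 7.01 in BAG pmk-3(wz31) and 0.835 and 1.91 in BAG wild type. The ratio of flp-19 to ets-5 was 2.10 and 2.58 in BAG pmk-3(wz31) and 0.600 and 0.834 in BAG wild type. That of flp-13 to ets-5 was 1.51 and 1.73 in BAG pmk-3(wz31) and 0.972 and 0.693 in BAG wild type. For each of these neuropeptide genes the mutant libraries lay above the wild-type libraries without overlap. For gcy-9 the ratio was 31.1 and 42.5 in BAG pmk-3(wz31) and 31.5 and 49.6 in BAG wild type, with overlap. The ratio of gcy-31 was 7.96 and 9.02 in BAG pmk-3(wz31) and 9.46 and 10.3 in BAG wild type, and that of gcy-33 was 3.59 and 4.18 in BAG pmk-3(wz31) and 5.51 and 5.86 in BAG wild type, both lower in the mutant without overlap. The divisor ets-5 itself averaged 675 normalized counts in BAG pmk-3(wz31) and 546 in BAG wild type. The gcy-31 mean was 6624 in BAG pmk-3(wz31) and 6233 in BAG wild type, so its lower ratio does not show a lower gcy-31 level. For gcy-33 the means were 3393 and 4016. The share of all genes whose ratios separate in this way was not computed. These ratios were not tested.

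The genes whose profiles over the 6 libraries most resembled each factor were named by the root mean square difference of mean-centred log2 values, over the 7789 tested genes whose mean reached 50. For ets-5 they were R01E6.7 (0.24), gcy-31 (0.24), F16C3.3 (0.24), the diacylglycerol kinase gene dgk-3 (0.28) and the neuropeptide receptor gene npr-9 (0.30). As with ets-5, R01E6.7 was low outside BAG cells, with 687 and 766 normalized counts in BAG pmk-3(wz31), 464 and 506 in BAG wild type and 7.58 and 11.2 in non-BAG libraries. The reads of npr-9 and dgk-3 are uncertain, since they share exon bases with gcy-9 and ina-1 on the other strand.

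For egl-13 they were the neuropeptide receptor gene npr-31 (0.08), W07G1.5, now named rpi-1 (0.12), C05G5.3 (0.16), F59D12.1, now named pcdr-1 (0.20), and F18E9.1 (0.20). The closest, npr-31, had 278 and 349.6 normalized counts in BAG pmk-3(wz31), 291 and 215 in BAG wild type and 18.4 and 8.68 in non-BAG libraries, the same order of libraries within each group as egl-13. For ceh-37 the list held ift-74 (0.10), F13C5.1 (0.11), vab-3 (0.12), ift-20 (0.13) and dyf-1 (0.13). Of these, ift-74, ift-20 and dyf-1 encode parts of intraflagellar transport, the machinery that builds sensory cilia. The gene ift-74 had 569 and 668 normalized counts in BAG pmk-3(wz31), 665 and 386 in BAG wild type and 153 and 77.5 in non-BAG libraries. The reads of F13C5.1 and ift-20 are uncertain, since each shares exon bases with a gene on the other strand. All 6 libraries enter each likeness, which is a description.

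Small genes annotated inside or across the 3 loci were examined after their values were seen. The calmodulin-like gene cal-5 shares 76 exon bases with ets-5 on the same strand, so some reads could belong to either. It had 237 and 278 normalized counts in BAG pmk-3(wz31), 366 and 197 in BAG wild type and 39.0 and 57.7 in non-BAG libraries. Per kb, the ratio of cal-5 to ets-5 was 0.774 and 0.984 in BAG pmk-3(wz31), 1.35 and 0.953 in BAG wild type and 11.8 and 15.2 in non-BAG libraries, so outside BAG cells cal-5 stood above ets-5. It too was called higher in BAG wild type than in non-BAG cells (2.48 ± 0.38, limma adjusted p = 0.00244).

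Several non-coding RNA genes on the strand opposite to the factors were also higher in BAG cells. Whether the counting used strand was not given in the sources used here. All 147 exon bases of C42D8.12 lie inside ets-5 exons, and it had 60.4 and 49.4 normalized counts in BAG pmk-3(wz31), 42 and 25.1 in BAG wild type and 0 and 2.48 in non-BAG libraries (BAG wild type against non-BAG limma adjusted p = 0.00467). Inside egl-13 introns, T22B7.17 had 147 and 115 normalized counts in BAG pmk-3(wz31), 165 and 101 in BAG wild type and 5.41 and 6.82 in non-BAG libraries, and it was called (BAG wild type against non-BAG 4.20 ± 0.43, limma adjusted p = 0.000214). The intronic genes T22B7.9 and T22B7.12 were called too, T22B7.19 was not (limma adjusted p = 0.141), and T22B7.10 and T22B7.21 had at most 12 reads in any library and were not tested.

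In an intron of ceh-37, C37E2.8 had 128 and 109 normalized counts in BAG pmk-3(wz31), 76.7 and 50.3 in BAG wild type and 0 and 1.24 in non-BAG libraries, the last on 0 and 2 reads (BAG wild type against non-BAG limma adjusted p = 0.000287). Its neighbour C37E2.9 had 52.8 and 46, 21 and 22.3, and 8.66 and 4.34 and was called in BAG pmk-3(wz31) against non-BAG cells (limma adjusted p = 0.00571) but not in BAG wild type against non-BAG cells (limma adjusted p = 0.0814). The C37E2.9 call was lost without BAG pmk-3(wz31) replicate 1 and without BAG pmk-3(wz31) replicate 2. Their BAG and non-BAG libraries did not overlap, as for the host gene. If strand was not used, reads of unspliced egl-13 or ceh-37 transcripts and reads of these RNAs cannot be told apart.

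**Figure D5:**
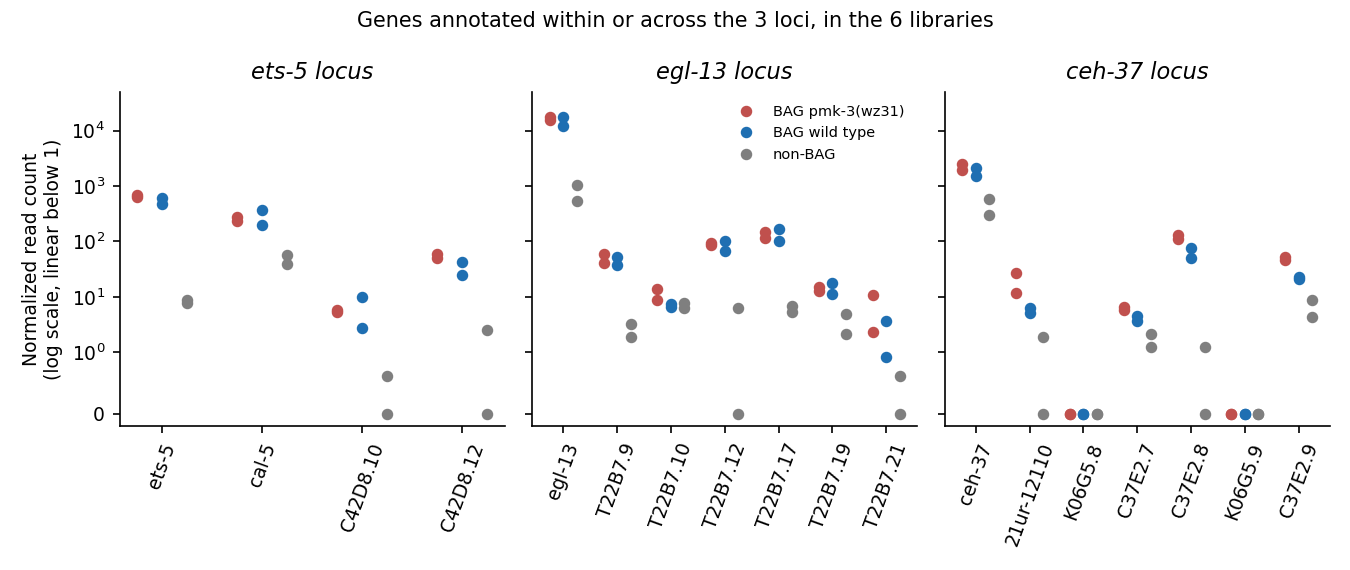
Normalized read counts (log axis, linear below 1) of ets-5, egl-13 and ceh-37 and of the genes annotated within or across each locus; each point is 1 library, coloured by group. The non-coding genes with the highest values, T22B7.17 in the egl-13 locus and C37E2.8 in the ceh-37 locus, show BAG points above the non-BAG points, as the factor genes do.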

How the data were processed

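The authors deposited 1 table of normalized read counts, used here as a signal for each gene in each of 6 libraries. Per the submitters' processing notes STAR, HTSeq and DESeq2 were used, with neither version nor role stated. Genome build, annotation and strand use were not given in the sources used here. Within a library, deposited values were whole multiples of its smallest value within 0.01 of a read (100.0% of values), and dividing by that step recovered the reads, 6181113 to 8596169 a library. Replicates differed beyond sampling noise (chi-square divided by its degrees of freedom 11 in BAG pmk-3(wz31), 32.9 in BAG wild type and 48.3 in non-BAG cells). The labels call the libraries biological replicates without naming separate cultures, so the spread behind each p-value may be technical.

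A gene was tested if 2 or more libraries had a value of 10 or more, which kept 14211. The model was limma (3.58.1, R 4.3.3) on log2(value + 1), with moderation along the mean-variance trend. It held the 3 groups together, left 3 residual degrees of freedom and had no replicate block. Tests were two-sided, with Benjamini-Hochberg adjustment over all genes tested. Ratios called fitted are 2 to the power of the log2 difference and understate changes of genes with low values. The 3 genes, the lists, the tests and the naming rule were chosen with earlier results of these data known. Named genes were the 3 factors, the tested ETS, SOX and OTX genes and BAG effectors, up to 5 called neuron fate regulators in each comparison, the 2 most changed pan-neuronal genes, and the 5 most similar profiles per factor. Genes of the 3 loci, cnd-1, unc-42, egl-46, unc-54, tni-4, pha-4, nos-2, cgh-1, mex-5, odr-10, gcy-8, dat-1 and gcy-32 were named after their values were seen. Ensembl 115 (WBcel235) gave exon lengths, overlaps and current names, and 46407 of the 47063 gene IDs matched it. Reads of a named gene are called uncertain where a gene sharing its exon bases reached 10% of its level.

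Each result was recomputed with a pseudocount of 0.5 or 8, without the filter, with a minimum mean of 50, after TMM or quantile scaling, with a replicate block, without the trend, from the compared groups alone, by quasi-likelihood in edgeR 4.0.16 and by DESeq2 1.42.0, both on recovered reads, and with each library left out. A group reduced to 1 library was given the spread of the other groups. The fits were tested on simulated data. No sequence was used here, so the planned motif search was not run.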

Additional observations from a re-analysis of the deposited data

How the results depend on the processing

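Results were recomputed under 17 alternatives, and under 14 or 16 for the few named genes with low values that a filter left untested. The calls of ets-5, egl-13 and ceh-37 against non-BAG cells held in all of them, with log2 differences in BAG wild type against non-BAG of 5.09 to 6.09 for ets-5, 3.84 to 4.78 for egl-13 and 1.65 to 2.57 for ceh-37, and the highest adjusted p was 0.0379, for ceh-37. In BAG pmk-3(wz31) against BAG wild type none of the 3 passed under any alternative, with values of 0.12 to 0.51 for ets-5 and 0.05 to 0.56 for ceh-37, and egl-13 turned to -0.09 under quantile scaling and to -0.10 without BAG wild type replicate 2, within leave-one-out values of -0.10 to 0.45. The number of genes called in BAG wild type against non-BAG was 2014 and became 1211 with only the groups compared, and 1211 to 2190 with 1 library left out, the lowest without BAG wild type replicate 1. In BAG pmk-3(wz31) against BAG wild type 119 genes were called (58.0% higher). The number became 221 with a pseudocount of 8, 685 with a replicate block, 1 with no trend, 671 with DESeq2, 599 with only the groups compared and 0 to 520 with 1 library left out (0 to 5 without any 1 BAG library, 494 and 520 without a non-BAG library), and the share higher was 68.6% with TMM scaling and 73.8% with edgeR. Against non-BAG cells the mutant had 3628 genes called, and 1376 to 3730 with 1 library left out, with 1684 and 1376 without BAG pmk-3(wz31) replicate 1 and 2. Scaling moved the median log2 difference of all genes to 0.13 with TMM in mutant against wild type, and to -0.23 with quantile scaling in mutant against non-BAG. With the replicate block the members kept their calls, 4 effectors and sox-2 passed between genotypes, and 9 neuron fate regulators were called lower in BAG wild type than non-BAG. Same-numbered libraries were not treated as pairs. Their deviations correlated at 0.05 between BAG pmk-3(wz31) and BAG wild type and at 0.00 between BAG pmk-3(wz31) and non-BAG. Between BAG wild type and non-BAG, the 2 groups sorted from strain FQ424, the correlation was 0.46. Whether those 2 groups were paired was not tested, and the main fit ignores such a pairing. With the replicate block 2847 genes were called in BAG wild type against non-BAG, beside 2014 in the main fit. The causes of these shifts were not tested. Depth limits ets-5 in non-BAG cells, where it had 7 and 14 reads. The planned motif search was not run, since no sequence was used here.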

Other observations

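Genes that most neurons use were also higher in the sorted BAG cells. Of 15 pan-neuronal genes, 14 were called higher than in non-BAG cells in both BAG genotypes. Of all genes tested, 16.2% were called higher in BAG pmk-3(wz31) and 10.2% in BAG wild type. The median log2 difference of the list was 3.24 for BAG pmk-3(wz31) and 3.00 for BAG wild type, beside -0.09 and -0.04 over all genes tested. The synaptotagmin gene snt-1 had 4019 and 3519 normalized counts in BAG pmk-3(wz31), 2664 and 2407 in BAG wild type and 129.9 and 105 in non-BAG libraries. The proprotein convertase gene egl-3, which cuts neuropeptide precursors, had 21802 and 31346 in BAG pmk-3(wz31), 7889 and 7104 in BAG wild type and 617 and 329 in non-BAG libraries, and missed the threshold between genotypes (log2 difference 1.80 ± 0.35, limma adjusted p = 0.0533). The carboxypeptidase gene egl-21, which acts after it, was the 1 pan-neuronal gene that limma called between genotypes (0.486% of all genes tested were called higher), with 5949 and 7854 in BAG pmk-3(wz31), 2337 and 2451 in BAG wild type and 267 and 205 in non-BAG libraries (1.51 ± 0.27, limma adjusted p = 0.0425), and that call was lost under 6 of the 17 alternatives, among them each fit that left out 1 of the 4 BAG libraries. Both edgeR and DESeq2 called 2 pan-neuronal genes there, egl-3 being the second, and the number ran from 0 to 3 over the alternatives.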
